A study of Homo sapiens with 8 samples.

Results

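The mitochondrial carriers are the proteins of the SLC25 family, and their RNAs were followed here in human FT293 cells made to express GFP, HuR, TIA1 or TIAR. Members were all genes that the array design names SLC25A followed by a number, which gave 45 genes of 36337 gene names on the array. They were measured by 56 probes, with 1 probe for 34 genes and 2 probes for 11 genes. FT293 cells derive from HEK293, a human embryonic kidney line, and carry a tetracycline-inducible transgene placed at a single genomic site by Flp recombinase. The GFP line expressed GFP alone and served as control, the HuR line expressed GFP-HuR, the TIA1 line GFP-TIA1 and the TIAR line GFP-TIAR, in each case after 3 days of tetracycline. Each line had 2 arrays, and all 8 lay on 1 slide. The HuR, TIA1 and TIAR proteins carried a GFP tag and were overexpressed from an inducible promoter, and the endogenous genes remained in place. Nothing in the labels says whether the 2 arrays of a line came from separate cultures, so p-values measure only the spread between these arrays.

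SLC25 proteins move nucleotides, amino acids, phosphate, organic acids and cofactors across the inner mitochondrial membrane, a barrier that is otherwise closed to most charged metabolites. They share a fold of repeated pairs of membrane helices and usually exchange a substrate on one side for a substrate on the other. They are encoded in the nucleus, made in the cytosol and imported, and a few members sit in the outer membrane or in peroxisomes. TIA1, TIAR and HuR bind U- and AU-rich stretches of RNA, where TIA1 and TIAR are known for effects on splicing and for holding back translation and HuR for stabilizing bound messages.

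The signals of the genes that met the calling threshold against HuR came from the following stretches of the array's probes. Each shows 30 bases of a probe of 60 bases, 5′ to 3′ on the transcript's strand, and the capitals in SLC25A34 mark AATAAA, the letters of the common polyadenylation signal. The probe positions are those of the hg19 design annotation: SLC25A34 at chr1:16067824-16067883 on the plus strand, SLC25A35 at chr17:8191156-8191215 on the minus strand, SLC25A41 at chr19:6426069-6426128 on the minus strand, SLC25A42 at chr19:19223038-19223097 on the plus strand and SLC25A43 at chrX:118587814-118587873 on the plus strand.
SLC25A34, bases 31 to 60: aaaccAATAAAgttttatattttgtttact
SLC25A35, bases 1 to 30: gccaacctgggtattagaaatctaattcct
SLC25A41, bases 1 to 30: ccccttgtgggtcgtcctggctccagggcg
SLC25A42, bases 1 to 30: gtgtgaagggatctgagcttgttcatctcc
SLC25A43, bases 1 to 30: tgctgacatctgagtgcacacaccacagtg

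Signals are given as log2 of the processed intensity minus the array's 75th percentile, so that 0 is the brightness below which 75% of the spots lie. A gene was called when its fold change was at least 2 and its adjusted p was under 0.05. The share of the array's 50599 probes that were well above background was 53.2% to 58.5% on 7 arrays and 86.0% on GFP 1, where the mean local background was 90.0 against 37.4 to 43.5 on the others. The markers of the parent line were detected, with VIM between 6.06 and 6.80 and KRT18, KRT8, NEFL and PAX2 well above background on all 8 arrays by at least 1 probe. NEFM was so on 7 arrays. Of 8 markers of other cell types, COL1A1, CDH5 and PTPRC were above background on all 8 arrays by at least 1 probe, and the signals of COL1A1 and of that PTPRC probe reached 1.36 and 1.12 on GFP 1. By the probe most often detected, DCN was above background on 7 arrays, ALB on 6, CD3E on 2 and HBB and PECAM1 on 1. The brighter TIAL1 probe, TIAL1 being the gene of TIAR, read 4.93 ± 0.08 (SD, n = 2) in the TIAR line and between 1.68 and 2.49 on average in the other lines, in the direction of its label. The probes of TIA1 and of ELAVL1, the gene of HuR, were not higher in the lines labelled for them. The 2 TIA1 probes averaged -1.10 and -0.97 in the TIA1 line and -1.13 and -1.56 in TIAR. They averaged -0.53 and 0.06 in GFP and -0.58 and 0.01 in HuR. The ELAVL1 probe averaged 0.37 in the HuR line, 0.09 in TIA1 and 0.53 in TIAR against 1.00 in GFP. The paper reports lower endogenous TIA proteins when TIA1 or TIAR is expressed, and lower endogenous HuR when HuR is. A link between that and these probe values was not tested. Whether these probes lie in the part of the RNA that the transgene carries is not given in the sources used here, so they do not check the labels. For TIA1 2, one label names the protein as GFP-TIA2 and the title and genotype name it GFP-TIA1, which was followed.

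Of the 45 genes, 41 were well above background on all 8 arrays. SLC25A31, the testis-type ADP/ATP carrier, was not well above background on any array. SLC25A18, a glutamate carrier, was above background on 2 arrays and SLC25A2, an ornithine carrier, on 3, but neither was so on both arrays of any line, and both were left untested. SLC25A43, a carrier of unsettled substrate, was above background on 3 arrays, GFP 1 and both of the TIAR line, and was tested only in the comparisons with TIAR. The tests therefore covered 41 genes, or 42 with TIAR, and a gene with 2 tested probes was read by its leading probe, the one with the higher mean signal over the 8 arrays.

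In TIA1- versus HuR-expressing cells, SLC25A35 and SLC25A42 were higher and SLC25A34 and SLC25A41 were lower. That is 2 of 41 genes in each direction, against 8.46% of 21242 genes called higher and 4.74% called lower over the array. In TIAR- versus HuR-expressing cells SLC25A35, SLC25A42 and SLC25A43 were higher and SLC25A34 and SLC25A41 were lower, 3 of 42 and 2 of 42 against 7.4% and 2.83% of 21526 genes. SLC25A43 entered that comparison only through the TIAR arrays, the side on which it was high, so its call is a description, and 2 of the other 41 were higher. The shares of the carriers were near those of the array. The 2 comparisons use the same HuR arrays, so each is read from its own values.

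SLC25A35, a carrier without an established substrate, was lowest in the HuR line. Its log2 signals were -2.80 and -2.59 on the HuR arrays, -1.40 and -1.22 on the GFP arrays, -0.73 and -0.83 on the TIA1 arrays and -0.95 and -1.08 on the TIAR arrays. Both HuR arrays lay below the 6 others, which spanned less than the gap to HuR. The log2 fold change was 1.92 ± 0.12 (SE, adjusted p = 0.0026) in TIA1 versus HuR and 1.68 ± 0.12 (adjusted p = 0.0053) in TIAR versus HuR. The TIAR call was lost without HuR 1, with a log2 fold change of 1.57 and an adjusted p of 0.0511.

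SLC25A41, a short relative of the carriers that exchange ATP-Mg for phosphate, showed the opposite order and was highest in the HuR line. Its log2 signals were -2.24 and -2.46 on the HuR arrays, -4.24 and -3.50 on the GFP arrays, -3.33 and -3.39 on the TIA1 arrays and -3.69 and -3.85 on the TIAR arrays. The HuR arrays lay above all the others, and the TIAR arrays fell within the range of the 2 GFP arrays while the TIA1 arrays lay just above GFP 2. The log2 fold change was -1.004 ± 0.12 (SE, adjusted p = 0.0067) in TIA1 versus HuR and -1.42 ± 0.13 (adjusted p = 0.0071) in TIAR versus HuR. The TIA1 value lay at the 2-fold threshold, and the call was lost with the authors' normalized values (-0.94), with normexp (-0.74), without TIA1 2 (-0.97) and without HuR 1 (-0.89, adjusted p = 0.0533). The TIAR call was lost with normexp (-0.98), without HuR 1 (-1.31, adjusted p = 0.0595) and without HuR 2 (-1.53, adjusted p = 0.0571).

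SLC25A34, a close relative of SLC25A35 and likewise without an established substrate, was lowest in both TIA lines. Its log2 signals were -3.49 and -3.50 on the TIA1 arrays, -2.91 and -2.97 on the TIAR arrays, -1.80 and -1.92 on the HuR arrays and -1.93 and -2.42 on the GFP arrays. All 4 arrays of the TIA lines lay below the 4 arrays of HuR and GFP. The log2 fold change was -1.63 ± 0.10 (SE, adjusted p = 0.0025) in TIA1 versus HuR and -1.08 ± 0.10 (adjusted p = 0.0072) in TIAR versus HuR. The difference between TIAR and TIA1 was 0.56 ± 0.11 with an adjusted p of 0.0719, which did not meet the threshold. The TIAR call was lost with the authors' normalized values (-0.92), with normexp (-0.69) and without either HuR array (adjusted p = 0.0698 and 0.0674).

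SLC25A42, the carrier of coenzyme A, was highest in both TIA lines. Its log2 signals were -0.56 and -0.86 on the TIA1 arrays, -0.87 and -0.80 on the TIAR arrays, -1.79 and -1.99 on the HuR arrays and -2.02 and -1.75 on the GFP arrays. The TIA1 and TIAR arrays overlapped each other, the HuR and GFP arrays overlapped each other, and the 2 sets were apart. The log2 fold change was 1.18 ± 0.15 (SE, adjusted p = 0.0080) in TIA1 versus HuR and 1.05 ± 0.12 (adjusted p = 0.0093) in TIAR versus HuR. The authors' normalized values gave 0.94 and 0.72, below the 2-fold threshold in both comparisons. The TIA1 call was also lost without HuR 2 (adjusted p = 0.0616), and the TIAR call with quantile normalization (0.97), with normexp (0.88), without HuR 1 (adjusted p = 0.0627) and without HuR 2 (adjusted p = 0.0799).

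SLC25A43 was dim, and only the TIAR arrays and GFP 1 measured it above background, so it entered the comparisons with HuR and TIA1 only through TIAR, the side on which it was high, and its differences are given as a description. Its log2 signals were -4.03 and -4.39 on the TIAR arrays, -5.80 and -5.57 on the TIA1 arrays, -7.87 and -6.04 on the HuR arrays and -3.68 and -5.80 on the GFP arrays. Both TIAR arrays lay above all TIA1 and HuR arrays and below GFP 1. As HuR and TIA1 give only an upper bound, the bright side was taken against the dimmest probe detected above background on each dim array, or the probe's own signal where that was higher. By that bound, the signal was 3.42-fold higher in TIAR than in HuR and 2.42-fold higher in TIAR than in TIA1. These are no minimum for the RNA, as the authors' values gave smaller differences. The dimmest detected probe is also no sure limit: on HuR 2 it read -6.11, and SLC25A43 read -6.04 without being detected. The limma log2 differences, taken without the bound, were 2.75 (adjusted p = 0.0423) and 1.47 (adjusted p = 0.0359). As the TIAR arrays let the gene in, these p-values are no support for its being higher there. The calls did not hold widely: they stayed in 2 of 14 alternatives for TIAR versus HuR and in 1 of 14 for TIAR versus TIA1, and the authors' values gave log2 differences of 0.47 and 0.25. The call versus HuR was lost without HuR 1, TIAR 1 or TIAR 2 (adjusted p = 0.0566, 0.101 and 0.0779), and the call versus TIA1 without any 1 of the 4 arrays (adjusted p from 0.102 to 0.141).

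**Figure D1:**
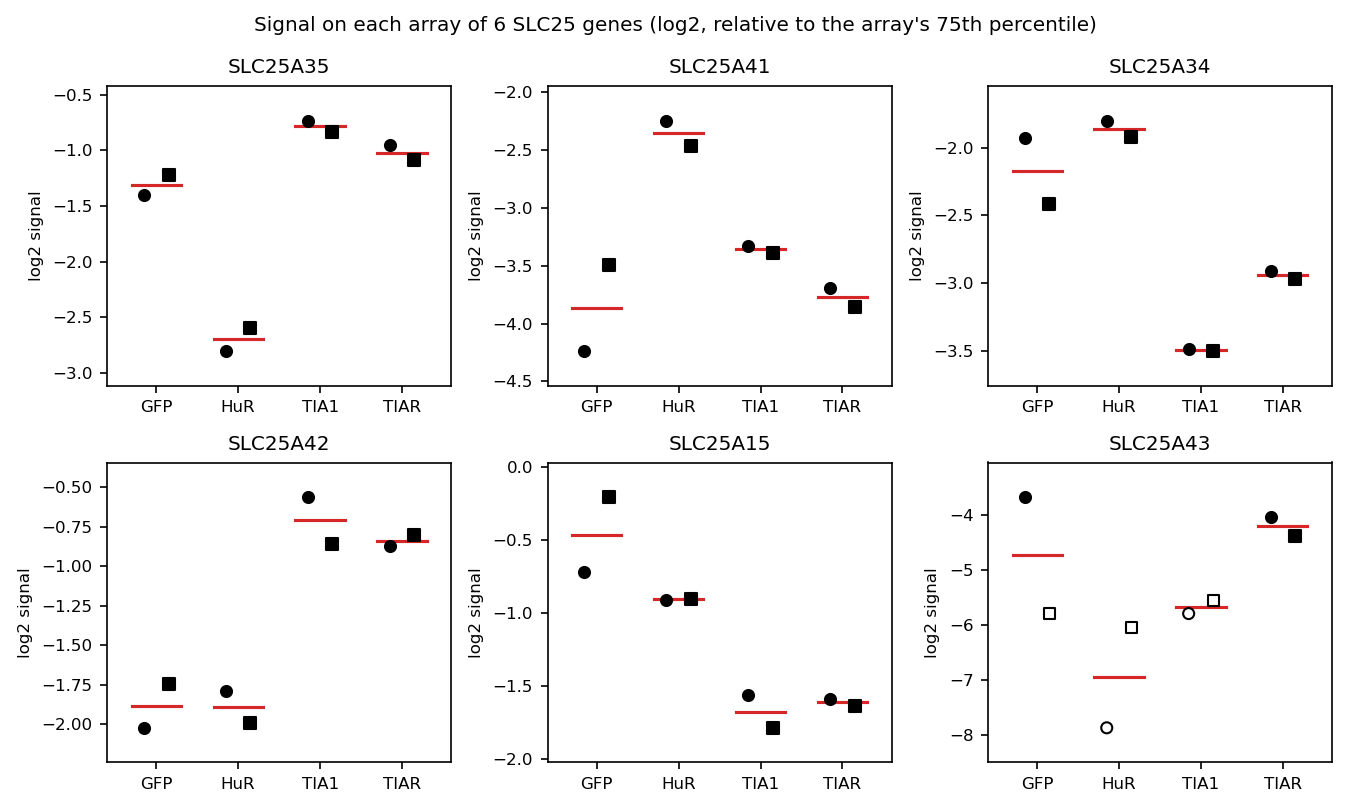
Log2 signal relative to the array's 75th percentile (vertical axis) of 6 carriers on each array of the 4 lines (horizontal axis); circles are replicate 1, squares replicate 2, open symbols are not well above background and red bars are means of 2 arrays. SLC25A35 is lowest in HuR at -2.80 and -2.59, SLC25A41 is highest in HuR at -2.24 and -2.46, and SLC25A34, SLC25A42 and SLC25A15 separate the TIA lines from HuR and GFP.

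At any fold, with the genes past 2-fold included, more of the carriers were lower than higher in the TIA lines versus HuR. This was not particular to the carriers: the import genes and the other mitochondrial transport proteins, given below, also had more lower than higher. At an adjusted p under 0.05 and any fold, 14 of 41 carriers (34.1%) were lower in TIA1 versus HuR against 17.3% of all genes tested, and 8 were higher (19.5%) against 24.2%. In TIAR versus HuR, 13 of 42 (31.0%) were lower against 12.2% and 4 were higher (9.52%) against 18.7%. The 4 include SLC25A43, let in by the TIAR arrays alone. The median log2 fold change of the carriers was -0.19 in TIA1 versus HuR, with 30 of 41 below 0, where the median of all genes was 0.08. In TIAR versus HuR it was -0.25, with 28 of 42 below 0, where the median of all genes was 0.06. The medians moved by over 1.5 times in some alternatives: the TIA1 median was -0.30 without TIA1 2 or HuR 1, and the TIAR median was -0.09 with the authors' values, where all genes were at -0.02, and -0.15 with normexp and quantile normalization together. The counts rest on both HuR arrays. Without HuR 1 the number lower fell to 1 in TIA1, with 3.61% of all genes lower, and to 0 in TIAR, with 0.293% of all genes lower. Without HuR 2 it fell to 2, with 3.37% of all genes lower, and to 0, with 0.279%. The medians of the carriers without HuR 1 were -0.30 and -0.26 in TIA1 and TIAR, and without HuR 2 -0.21 and -0.26, with all genes between 0.05 and 0.09. With all 8 arrays in one fit 9 and 4 were lower, and without the filter on dim probes 3 and 2. The shares of all genes in these runs were not computed, so the fall cannot be assigned to the carriers.

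**Figure D2:**
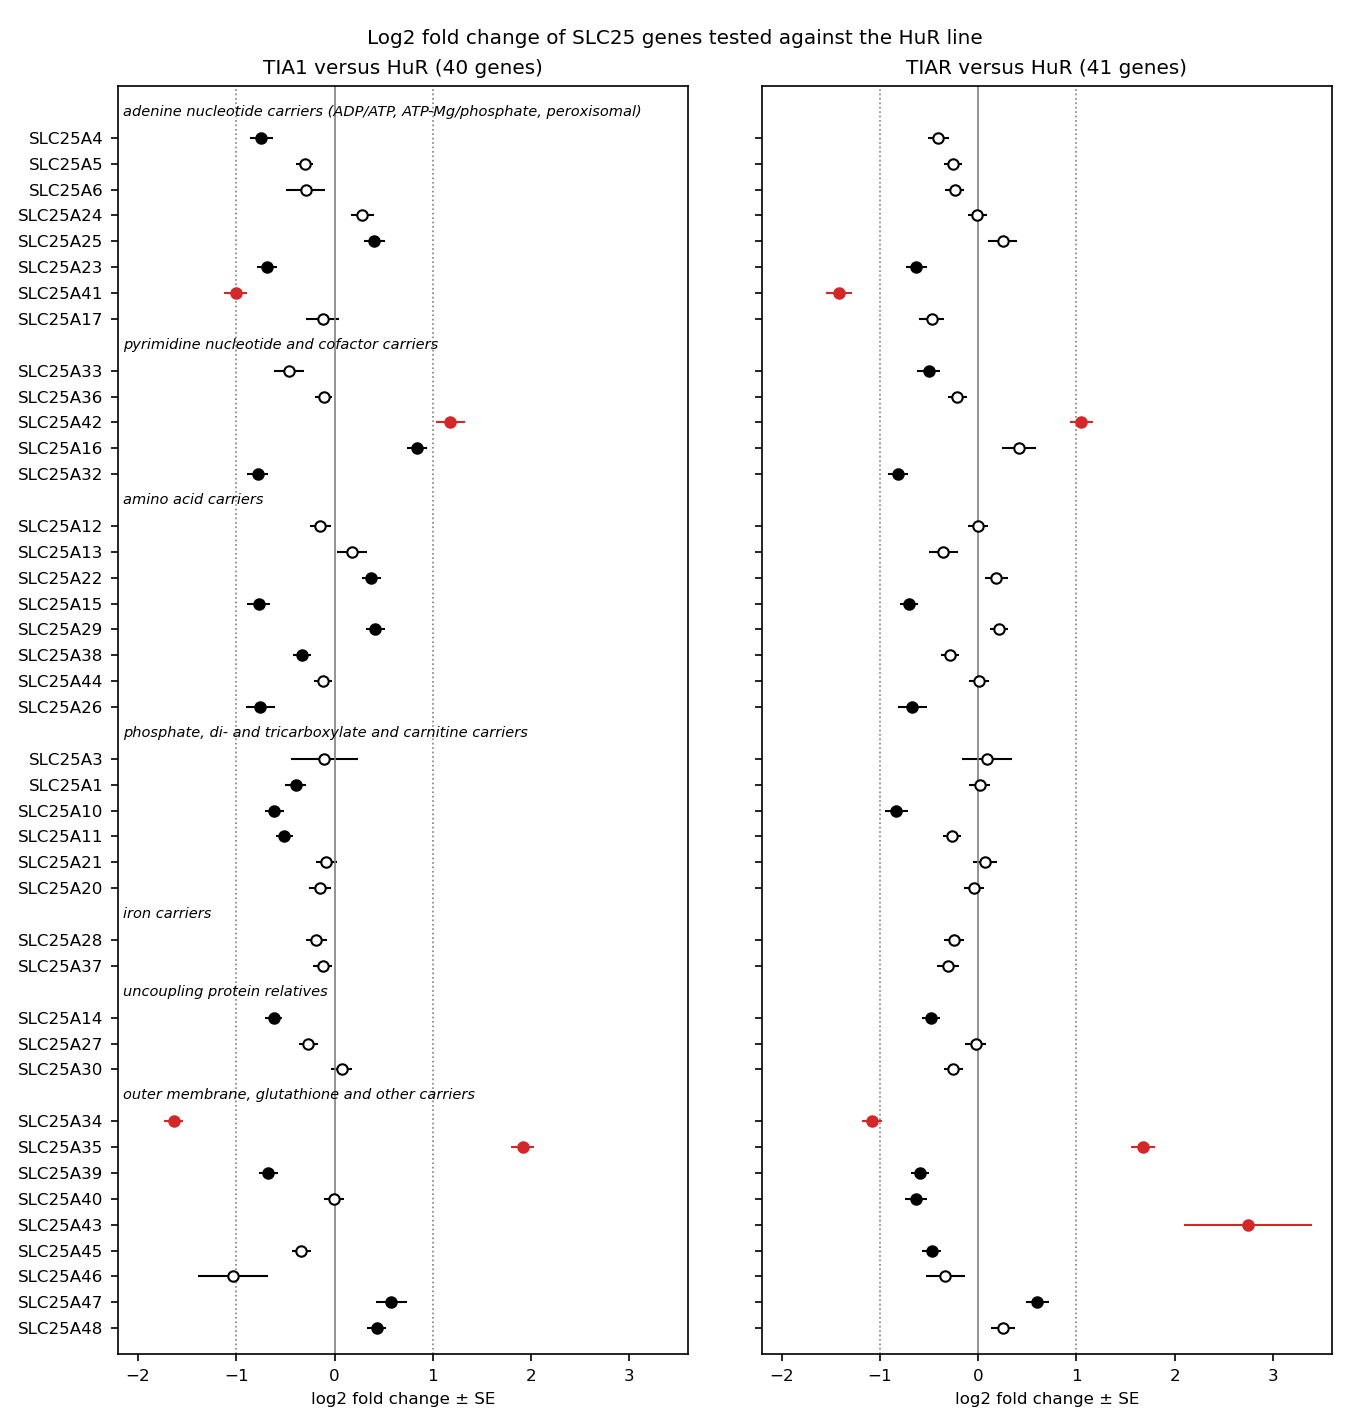
Log2 fold change with its standard error (horizontal axis) of 40 carriers in TIA1 versus HuR and 41 in TIAR versus HuR, grouped by substrate (vertical axis); filled symbols have an adjusted p under 0.05 and red symbols are also past 2-fold (dotted lines). Most symbols lie left of 0, and the genes past 2-fold lie on both sides.

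Among the carriers of adenine nucleotides, 8 of 9 were tested. At any fold, 3 were lower and 1 higher in TIA1 versus HuR, and 2 were lower and 0 higher in TIAR versus HuR. Over all genes, 17.3% were lower and 24.2% higher in TIA1, and 12.2% and 18.7% in TIAR. With so few genes, the group is not set apart from those shares. SLC25A4, SLC25A5 and SLC25A6 are the ADP/ATP carriers, which bring ADP into mitochondria and send ATP out. SLC25A4, the form of heart and muscle, read 2.87 and 3.09 on the TIA1 arrays, 3.40 and 3.24 on the TIAR arrays, 3.73 and 3.72 on the HuR arrays and 3.53 and 3.77 on the GFP arrays. Both TIA lines lay below the HuR and GFP arrays, with a log2 fold change of -0.74 ± 0.12 (SE, adjusted p = 0.0122) in TIA1 versus HuR and -0.41 ± 0.11 (adjusted p = 0.0527) in TIAR versus HuR.

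SLC25A5, the ADP/ATP carrier of dividing cells, read 6.26 and 6.27 on the TIA1 arrays, 6.30 and 6.33 on the TIAR arrays, 6.57 and 6.57 on the HuR arrays and 6.09 and 6.44 on the GFP arrays. Its log2 fold changes of -0.30 ± 0.09 (SE, adjusted p = 0.0545) and -0.25 ± 0.09 (adjusted p = 0.1051) did not meet the threshold. SLC25A6, a broadly expressed ADP/ATP carrier of the pseudoautosomal region, read 5.55 and 6.06 on the TIA1 arrays, 5.83 and 5.88 on the TIAR arrays, 6.04 and 6.15 on the HuR arrays and 5.16 and 5.90 on the GFP arrays. The TIA1 and HuR arrays overlapped, and the log2 fold changes were -0.29 ± 0.20 and -0.24 ± 0.10, with adjusted p of 0.2915 and 0.1414.

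The calcium-regulated carriers that exchange ATP-Mg for phosphate did not move alike. SLC25A23 fell, with log2 fold changes of -0.69 ± 0.10 (SE, adjusted p = 0.0109) in TIA1 and -0.63 ± 0.10 (adjusted p = 0.0198) in TIAR versus HuR. SLC25A25 rose in TIA1 versus HuR by 0.41 ± 0.11 on the log2 scale (adjusted p = 0.0431) and had 0.25 ± 0.15 in TIAR (adjusted p = 0.2585). SLC25A24 had 0.28 and -0.01, neither past the threshold. SLC25A17, the peroxisomal member, had -0.12 and -0.47, the second with an adjusted p of 0.0540. The probes of SLC25A41 and SLC25A23 lie 14098 bases apart on chromosome 19, on the same strand. Both genes were lower in both TIA lines than in HuR by their leading probes, but the other SLC25A23 probe, given below, did not follow in TIA1. SLC25A43 and SLC25A5, 17258 bases apart on the same strand, had opposite signs in TIAR versus HuR. SLC25A29 and SLC25A47, 38688 bases apart on opposite strands, both rose in TIA1. A link to position was not tested.

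Among the carriers of pyrimidine nucleotides and cofactors, all 6 were tested. SLC25A32, which carries folate and FAD, read 0.70 and 0.81 on the TIA1 arrays, 0.72 and 0.73 on the TIAR arrays, 1.47 and 1.61 on the HuR arrays and 1.32 and 1.38 on the GFP arrays. The TIA lines lay below HuR and GFP without overlap, and the log2 fold changes were -0.78 ± 0.11 (SE, adjusted p = 0.0093) and -0.81 ± 0.10 (adjusted p = 0.0117). SLC25A33, a pyrimidine nucleotide carrier, had -0.46 in TIA1 (adjusted p = 0.0738) and fell by 0.50 in TIAR (adjusted p = 0.0392), and its relative SLC25A36 had -0.11 and -0.21 without meeting the threshold. SLC25A16, linked to coenzyme A transport, rose in TIA1 by its leading probe only, from 1.26 and 1.40 on the HuR arrays to 2.19 and 2.16 on the TIA1 arrays (log2 fold change 0.84 ± 0.10, adjusted p = 0.0069). On the TIAR arrays that probe read 1.55 and 1.95, which did not meet the threshold versus HuR. The other probe read 0.06 and -0.04 on the HuR arrays and 0.04 and 0.05 on the TIA1 arrays.

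Among the amino acid carriers, 8 of 10 were tested, and none passed 2-fold. SLC25A15, the ornithine carrier of the urea cycle, read -1.56 and -1.79 on the TIA1 arrays, -1.59 and -1.63 on the TIAR arrays, -0.91 and -0.90 on the HuR arrays and -0.72 and -0.20 on the GFP arrays. Both TIA lines lay below HuR, and HuR below GFP, and the log2 fold changes versus HuR were -0.77 ± 0.12 (SE, adjusted p = 0.0116) and -0.71 ± 0.09 (adjusted p = 0.0124). SLC25A26, which brings S-adenosylmethionine into mitochondria, fell by 0.75 and 0.67 on the log2 scale in TIA1 and TIAR (adjusted p = 0.0209 and 0.0384). SLC25A38, a glycine carrier needed for heme synthesis, fell by 0.33 in TIA1 (adjusted p = 0.0463) and had -0.29 in TIAR (adjusted p = 0.0815). The glutamate carrier SLC25A22 and the basic amino acid carrier SLC25A29 rose in TIA1 by 0.37 and 0.42 (adjusted p = 0.0399 and 0.0279) and had 0.18 and 0.21 in TIAR. The aspartate-glutamate carriers of the malate-aspartate shuttle, SLC25A12 and SLC25A13, did not meet the threshold, with -0.14 and 0.18 in TIA1 and 0.00 and -0.35 in TIAR.

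Among the carriers of phosphate, organic acids and carnitine, all 6 were tested. All 6 had a negative log2 fold change in TIA1 versus HuR, as had 30 of all 41 carriers, and some lay near 0. In TIAR versus HuR their median was -0.01, with values from -0.83 to 0.09. SLC25A10, the dicarboxylate carrier, fell by 0.61 and 0.83 on the log2 scale in TIA1 and TIAR (adjusted p = 0.0124 and 0.0151). The oxoglutarate-malate carrier SLC25A11 and the citrate carrier SLC25A1 fell in TIA1, by 0.51 (adjusted p = 0.0162) and 0.40 (adjusted p = 0.0423), and had -0.26 and 0.02 in TIAR (adjusted p = 0.0983 and 0.9161). The carnitine-acylcarnitine carrier SLC25A20 had -0.15 and -0.04, neither past the threshold. SLC25A3, the phosphate carrier that supplies ATP synthase, read 5.78 and 6.45 on the TIA1 arrays, 6.30 and 6.32 on the TIAR arrays, 5.87 and 6.57 on the HuR arrays and 5.74 and 6.54 on the GFP arrays. Its replicates differed by 0.66 to 0.80 in 3 lines, with replicate 2 the higher each time, and by 0.01 in TIAR, so that a log2 difference of that size between lines could not be told from the spread. The log2 fold changes were -0.10 ± 0.34 and 0.09 ± 0.26.

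The iron carriers SLC25A28 and SLC25A37 had log2 fold changes of -0.19 and -0.12 in TIA1 and -0.25 and -0.31 in TIAR versus HuR, none past the threshold. Of the relatives of the uncoupling proteins, SLC25A14 fell by 0.62 in TIA1 and 0.48 in TIAR on the log2 scale (adjusted p = 0.0106 and 0.0260). SLC25A30 had 0.07 and -0.25 and did not meet the threshold. SLC25A39, linked to glutathione uptake, fell by 0.67 and 0.59 (adjusted p = 0.0101 and 0.0183), while its relative SLC25A40 had -0.01 in TIA1 (adjusted p = 0.9689) and fell by 0.63 in TIAR (adjusted p = 0.0217). The direct difference of SLC25A40 between TIAR and TIA1 was -0.63 ± 0.12, with an adjusted p of 0.0662. SLC25A47, known from liver, rose by 0.58 and 0.60 (adjusted p = 0.0467 and 0.0273), SLC25A48 rose by 0.43 in TIA1 (adjusted p = 0.0290), and SLC25A45 fell by 0.47 in TIAR (adjusted p = 0.0319). SLC25A44, a carrier of branched-chain amino acids, had -0.11 and 0.01.

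**Figure D3:**
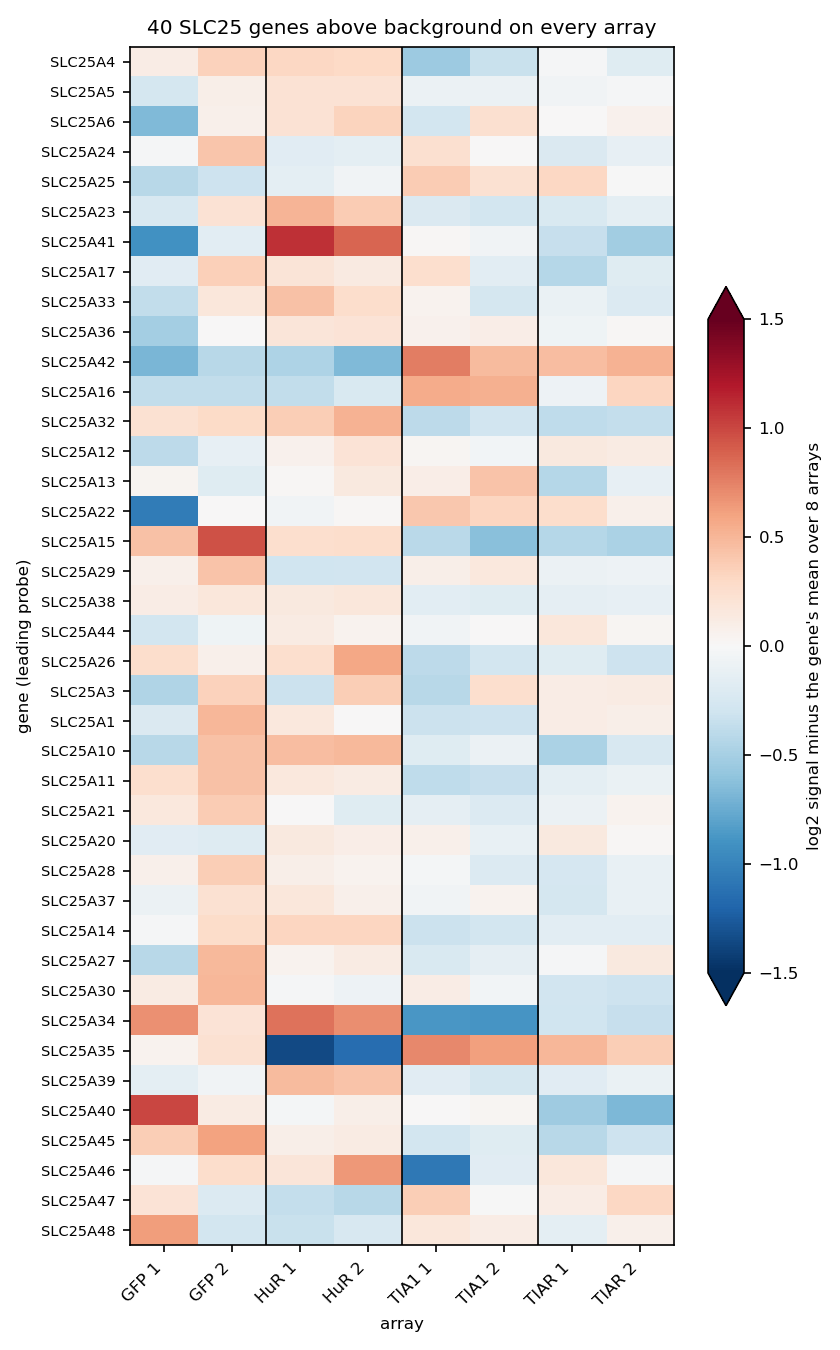
Log2 signal minus the gene's mean over the 8 arrays (colour, blue lower and red higher) for 40 carriers above background on every array (vertical axis), with the arrays of the 4 lines along the horizontal axis. SLC25A35 and SLC25A41 stand out in the 2 HuR columns, SLC25A34 and SLC25A42 in the TIA1 and TIAR columns, and the 2 GFP columns differ from each other more than the columns of the other lines.

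For 10 genes both probes were tested, and they did not always give the same call. The probes of SLC25A15 overlap in the genome. They gave log2 fold changes of -0.77 and -0.75 in TIA1 versus HuR and -0.71 and -0.82 in TIAR versus HuR. As they share part of the RNA they read, they are not independent measurements.

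The probes of SLC25A16 and SLC25A27 lie apart within their genes and differed. For SLC25A16, the leading probe gave 0.84 in TIA1 versus HuR and the other gave 0.04 (adjusted p = 0.7879). For SLC25A27, a relative of the uncoupling proteins known from brain, the leading probe at chr6:46645803-46645862 gave -0.27 (adjusted p = 0.0942) and the other, which spans an exon junction between chr6:46623747 and chr6:46626733, gave -1.24 ± 0.31 (SE, adjusted p = 0.0385) and passed the call. Its signals were -3.95 and -3.08 on the TIA1 arrays and -2.33 and -2.22 on the HuR arrays, so the TIA1 replicates differed by more than TIA1 2 did from either HuR array. The first 30 bases of the SLC25A27 probes, in lower case since no part is singled out, show that they read different sequence.
SLC25A27, leading probe: gcttaacttcccaagtgttctgcattgaac
SLC25A27, other probe: acacccgccatttacagacacgtagtgtat

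Of the other pairs, SLC25A23 had -0.69 by its leading probe and -0.05 by the other in TIA1 versus HuR, and SLC25A36 had -0.11 and -0.67 (adjusted p = 0.0176 for the second). SLC25A21, a carrier of oxoadipate, had -0.08 by its leading probe and -0.59 by the other in TIA1 (adjusted p = 0.0472 for the second), and 0.07 and -0.67 in TIAR (adjusted p = 0.0191 for the second). SLC25A46, an outer membrane protein that acts in mitochondrial dynamics, had -1.03 ± 0.36 by its leading probe (adjusted p = 0.0823) and -0.65 ± 0.09 by the other (adjusted p = 0.0099) in TIA1. Its leading probe read -0.15 and 0.75 on the TIA1 arrays and 1.10 and 1.57 on the HuR arrays, apart but with wide replicates. SLC25A45 had -0.47 by its leading probe and 0.09 by the other in TIAR (adjusted p = 0.0319 and 0.6745).

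**Figure D4:**
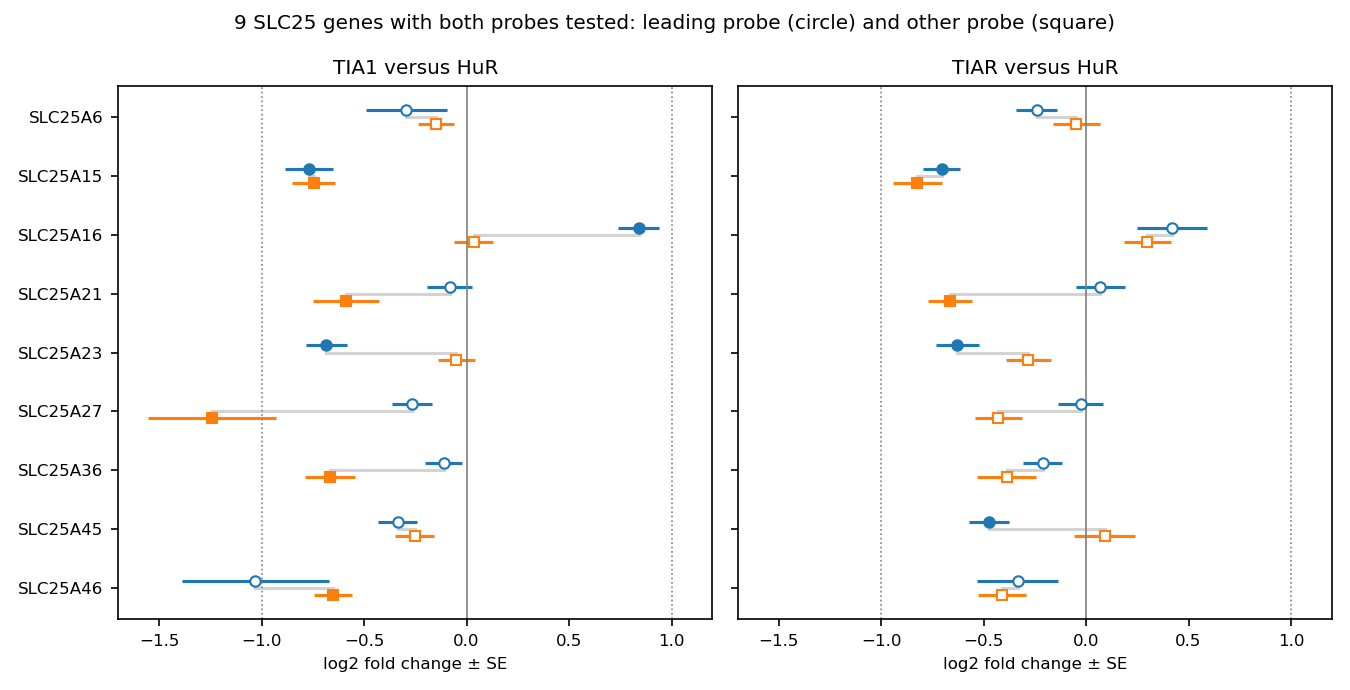
Log2 fold change with its standard error (horizontal axis) by the leading probe (blue circles) and the other probe (orange squares) of 9 genes with both probes tested (vertical axis), in TIA1 versus HuR and TIAR versus HuR; filled symbols have an adjusted p under 0.05 and dotted lines mark 2-fold. SLC25A15 has both probes close together, and SLC25A16, SLC25A23 and SLC25A27 have them apart in TIA1.

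The comparison of TIAR with TIA1 asks whether the TIA lines differed from each other. Of 42 carriers, 1 was called higher in TIAR against 1.34% of 20786 genes, SLC25A43, let in by the TIAR arrays alone, and 0 were called lower in TIAR against 1.03%. At an unadjusted limma p under 0.05 there were 7 carriers, a count without a share of all genes to set it against. The median log2 fold change of the carriers was 0.03 where that of all genes was -0.02. Apart from SLC25A43, the differences lay between -0.63 in SLC25A40 and 0.70 in SLC25A46, whose adjusted p were 0.0662 and 0.2850.

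Against the GFP control, 0 of the carriers were called in any of the 3 comparisons, where the array as a whole also had 0 calls (0% in both directions of 20741 genes in TIA1 versus GFP, 0% of 21163 in TIAR versus GFP and 0% of 21376 in HuR versus GFP). At an unadjusted limma p under 0.05 there were 9 carriers in TIA1, 6 in TIAR and 3 in HuR versus GFP. The share of all genes under that p was not computed, so these counts are no result about the carriers. SLC25A42 had 1.17 ± 0.23 and 1.05 ± 0.21 (SE) in TIA1 and TIAR versus GFP on the log2 scale (adjusted p = 0.1236 and 0.2052). SLC25A34 had -1.32 ± 0.25 and -0.77 ± 0.25 (adjusted p = 0.1214 and 0.2861). SLC25A15 had -1.21 ± 0.27 and -1.15 ± 0.26 (adjusted p = 0.1389 and 0.2151). In HuR versus GFP, SLC25A35 had -1.39 ± 0.18 and SLC25A41 had 1.51 ± 0.32 (adjusted p = 0.1773 and 0.2036). The 2 GFP arrays differed by a median of 0.35 over the 42 carriers, against 0.08 in HuR, 0.10 in TIA1 and 0.12 in TIAR, and GFP 1 was the array with the raised background, whose part in these results was not tested beyond leaving it out.

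Without GFP 1, the GFP line was GFP 2 alone, assumed to vary like the other line, and some carriers passed the call. In TIA1 versus GFP 2, SLC25A15 (-1.47 ± 0.19, adjusted p = 0.0293) and SLC25A34 (-1.08 ± 0.16, adjusted p = 0.0346) were lower, 2 of 41 against 4.25% of genes, and 0 were higher against 7.32%. In TIAR versus GFP 2, SLC25A15 was lower (-1.41 ± 0.16, adjusted p = 0.0373) against 1.62% of genes and 1 was higher against 5.27%. The latter was SLC25A43, which GFP 2 did not measure above background and which entered only through TIAR, so no fold is given. In HuR versus GFP 2, SLC25A41 was higher (1.14 ± 0.14, adjusted p = 0.0248) against 4.5% of genes and SLC25A35 was lower (-1.48 ± 0.14, adjusted p = 0.0195) against 4.08%. SLC25A42 had 1.04 ± 0.20 and 0.91 ± 0.16 in TIA1 and TIAR versus GFP 2, with adjusted p of 0.0532 and 0.0646.

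The machinery and enzymes around the carriers were read by the same call. Their counts stand beside the same shares of all genes, 8.46% higher and 4.74% lower in TIA1 and 7.4% and 2.83% in TIAR versus HuR, and with so few genes per list no list is set apart from them. Of 16 tested genes for the import of carriers, 0 were called higher and 1 lower in TIA1 versus HuR, the lower one being TOMM20, an import receptor of the outer membrane, at -1.01 ± 0.20 (SE, adjusted p = 0.0207). It had -0.74 ± 0.19 in TIAR (adjusted p = 0.0536), where 0 of 16 were called. The median of these genes was -0.30 in TIA1 and -0.36 in TIAR. At an adjusted p under 0.05 and any fold, 7 were lower and 1 higher in TIA1, and 6 and 1 in TIAR. Over all genes, 17.3% were lower and 24.2% higher in TIA1 at any fold, and 12.2% and 18.7% in TIAR. Of 18 other transport proteins of the mitochondrial membranes, none was called higher in TIA1 and 2 were lower, SFXN2 (-1.29 ± 0.09, adjusted p = 0.0029) and SFXN4 (-1.80 ± 0.22, adjusted p = 0.0073), both of the sideroflexin family. SFXN4 was also called lower in TIAR (-1.04 ± 0.21, adjusted p = 0.0311), and the list's median was -0.34 in TIA1 and -0.33 in TIAR. At any fold, 8 of this list were lower and 0 higher in TIA1, and 5 and 0 in TIAR.

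Of 17 enzymes that use carrier substrates, 2 were called higher and 1 lower in TIA1 versus HuR. The 3 are carnitine palmitoyltransferases by name and moved in both directions. CPT1B, the muscle form on the same list, had -0.09 in TIA1 (adjusted p = 0.4556) and 0.24 in TIAR (adjusted p = 0.1241). CPT1C, the CPT1 relative known from brain, read 0.02 and 0.19 on the TIA1 arrays, 0.25 and 0.47 on the TIAR arrays, -1.34 and -1.33 on the HuR arrays and -0.81 and -0.33 on the GFP arrays. It was higher in both TIA lines than in every HuR and GFP array, with log2 fold changes of 1.44 ± 0.11 (SE, adjusted p = 0.0031) and 1.69 ± 0.12 (adjusted p = 0.0051) versus HuR. CPT1A, the liver form, read -3.65 and -3.60 on the HuR arrays, -1.77 and -2.59 on the GFP arrays, -2.52 and -2.22 on the TIA1 arrays and -2.81 and -2.49 on the TIAR arrays. The HuR arrays alone lay apart, below the others, and the log2 difference from HuR was 1.26 ± 0.14 in TIA1 (adjusted p = 0.0058) and 0.98 ± 0.14 in TIAR (adjusted p = 0.0150), the latter below 2-fold. CPT2, the inner membrane transferase, read 0.31 and 0.23 on the TIA1 arrays, 0.58 and 0.75 on the TIAR arrays, 1.72 and 1.60 on the HuR arrays and 1.15 and 1.40 on the GFP arrays, with log2 fold changes of -1.39 ± 0.10 in TIA1 (adjusted p = 0.0030) and -0.997 ± 0.11 in TIAR (adjusted p = 0.0100, just below 2-fold). The medians of the list were -0.09 and -0.12. Of 6 family members under other names tested in TIA1 versus HuR, 1 was called higher, MCART6, which RefSeq now lists as SLC25A53. It was dim, read -4.97 and -4.62 on the TIA1 arrays and -5.59 and -6.02 on the HuR arrays, and entered only through TIA1, as 1 of 2 HuR arrays had it above background, so the call is a description. In TIAR, 0 of 5 were called.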

How the data were processed

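RNA of FT293 cells was hybridised to one-colour arrays, 2 per line. The authors deposited scanner files of Agilent Feature Extraction 10.7.3.1 with hg19 probe positions, whose processed intensity values are background-subtracted and not normalized between arrays, and a table of log2 values, deposited after normalization, that was used as an alternative. Here the processed signal was log2-transformed and the array's 75th percentile subtracted. Outlier spots were dropped and repeated spots averaged. A probe was tested if both arrays of either compared line had it well above background, in R 4.3.3 with limma 3.58.1 on the 4 arrays of each of 6 comparisons, with Benjamini-Hochberg adjustment over all probes tested, and read per gene by the leading probe. Limma was also run on simulated data with the same noise for every probe and changes well past 2-fold. That run checks the code and cannot speak for calls near 2-fold or probes of unequal spread. Precision is limited by having only 2 arrays for each line. The members, lists and alternatives were chosen with earlier results of these data known. All carriers enter the counts, and 1 result for a carrier and some probe sequences are not reported here; that carrier is also left out of the figures. Otherwise single-array values are given for genes called and for the ADP/ATP and phosphate carriers, with SLC25A15, SLC25A16, SLC25A27, SLC25A32 and SLC25A46 added after their values were seen. Of the other lists, called genes are named. Of 56 carrier probes, 53 matched the RefSeq table by accession, each under the same symbol. Groups are those of the sample titles. The 2 arrays of a line were not identical. Alternatives were normexp with an offset of 50, quantile normalization, both, the authors' values, other filters on dim probes and any probe of a gene. Others were a joint fit of all 8 arrays, also with array weights, a replicate block and leaving out each array. The last was the t-test that the paper's methods describe as paired, called the methods' t-test below.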

Additional observations from a re-analysis of the deposited data

How the results depend on the processing

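No called carrier changed sign against HuR or between TIAR and TIA1 in any alternative run. SLC25A22 in HuR versus GFP was -0.022 without GFP 1 and 1.03 without GFP 2, and SLC25A43 in TIAR versus GFP was 1.59 without GFP 1 and -0.53 without GFP 2; the cause was not tested. At 2-fold, TIA1 versus HuR gave 2 higher and 2 lower; this became 1 and 1 with the authors' values, 2 and 1 with normexp and quantile normalization together, and 0 and 0 with the methods' t-test after Benjamini-Hochberg adjustment (1 higher unadjusted). TIAR versus HuR gave 3 higher and 2 lower; this became 1 and 0 with normexp, 1 and 2 with quantile normalization, 1 and 1 with both, 1 and 1 with the authors' values, and 0 and 0 with the methods' t-test after adjustment (0 higher unadjusted). TIAR versus TIA1 gave 1 higher, and 0 with normexp, with both, with the authors' values, without the filter, above background on all 4 arrays, with all 8 arrays with or without weights, with the replicate block and with the methods' t-test, adjusted or not. At any fold, TIA1 versus HuR gave 8 higher and 14 lower, against 5 higher with both normalizations and with the authors' values, 3 and 3 without the filter, 3 and 9 with all 8 arrays, 4 higher with the replicate block, and 0 and 0 with the methods' t-test after adjustment (2 higher unadjusted). TIAR versus HuR gave 4 higher and 13 lower, against 2 higher with quantile normalization, 2 and 2 without the filter, 2 and 4 with all 8 arrays, and 0 and 0 with the methods' t-test after adjustment (1 higher unadjusted). Leaving out an array gave 1 to 2 higher and 1 to 2 lower at 2-fold in TIA1 versus HuR, 0 to 2 and 0 to 2 in TIAR versus HuR, 0 higher in TIAR versus TIA1, and at any fold 1 to 8 and 1 to 14 in TIA1 and 0 to 4 and 0 to 12 in TIAR versus HuR. Against GFP, where 0 were called, all 8 arrays in one fit gave 1 higher and 2 lower in TIA1, 1 and 1 in TIAR and 1 and 1 in HuR, array weights gave 1 lower in TIA1, and the unadjusted t-test 1 lower in HuR; leaving out an array gave 0 to 2 in each direction. Shares of all genes were not computed for these alternatives, apart from those given above without HuR 1, HuR 2 or GFP 1. The titles number the replicates but do not say that equal numbers mark pairs. Deviations of same-numbered arrays correlated between -0.09 and 0.18 over 24959 probes, which does not settle it. The methods' t-test paired arrays of equal number, so each comparison rested on 2 pairs and 1 degree of freedom. With adjustment over all probes tested it could hardly have called a gene, so its counts of 0 say nothing about the limma calls. The paper's own array calls used limma. The replicate block gave 5 lower and 2 higher in TIAR versus HuR at any fold. Without the filter the median of all genes moved to 0.31 in TIA1 and 0.22 in TIAR versus HuR. Signal over background limits SLC25A43 and the untested carriers.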
